A study of Mus musculus with 15 samples.

Results

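Nppa and Nppb encode atrial natriuretic peptide (ANP) and brain natriuretic peptide (BNP), and these 2 genes were followed through 15 heart libraries. They were chosen by name and not by a rule on their values, but with earlier results of these data known. They are 2 of the 12380 genes with values here. Both were among the 12258 genes tested. Hearts of male C57BL/6 mice were sequenced in 3 groups of 5 mice each. AngII+QDG mice received angiotensin II (AngII) together with QDG, a treatment that the labels give only by this abbreviation. AngII mice received angiotensin II alone, and Control mice carried the control label. The sources used here give neither the dose, route and duration of angiotensin II and QDG nor the age of the mice. No allele or transgene is named for any group. The stated aim was to find genes that differ in expression in angiotensin II infused mice after QDG treatment.

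ANP and BNP are peptide hormones that cardiomyocytes release when they are stretched or stimulated by hormones such as angiotensin II. Each is made as a longer precursor that is cut by proteases such as corin and furin, and the protease PACE4 activates corin. The hormones bind the receptor NPR1, whose intracellular cyclase domain makes cyclic GMP, and this lowers blood pressure, promotes salt loss by the kidney and opposes growth of the cardiomyocyte. In the adult heart Nppa is strongest in the atria, both genes are low in healthy ventricular muscle, and both are widely used as marker genes of ventricular hypertrophy.

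Both genes lie on the forward strand of mouse chromosome 4 in the GRCm38 build, with Nppb first. Nppb (ENSMUSG00000029019) spans chr4:147985788-147987205 and Nppa (ENSMUSG00000041616) spans chr4:148000722-148002079, with 13516 bases between them. GENCODE M21 annotates 1 protein-coding transcript for each, ENSMUST00000103231 of 781 nucleotides for Nppb and ENSMUST00000103230 of 865 nucleotides for Nppa. Both transcripts were listed in all 15 libraries, so the value of a transcript is also the value of its gene. An antisense gene, Gm13054, overlaps Nppa on the reverse strand and was not analysed here. The counting is not stated to use strand, so reads from Nppa and from this antisense gene cannot be told apart.

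The pair is a tandem duplication with similar hormones, so the transcripts were compared to see how far their reads can be separated. The longest run of identical bases anywhere in both transcripts was 10, so a sequenced fragment of either transcript carries many bases that differ from the other.

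The 250 bases before each gene's RefSeq start are shown because the factors that bind such elements are measured below. They are from RefSeq on GRCm38.p6, forward strand, and capitals mark the letters of the elements searched. GENCODE places the Nppb start 112 bases further upstream than RefSeq, and the start of Nppa is the same in both. Every marked Nppb element therefore lies past the GENCODE start of Nppb, inside the gene span given above. Positions below are counted from the RefSeq start.
Nppa, chr4:148000472-148000721: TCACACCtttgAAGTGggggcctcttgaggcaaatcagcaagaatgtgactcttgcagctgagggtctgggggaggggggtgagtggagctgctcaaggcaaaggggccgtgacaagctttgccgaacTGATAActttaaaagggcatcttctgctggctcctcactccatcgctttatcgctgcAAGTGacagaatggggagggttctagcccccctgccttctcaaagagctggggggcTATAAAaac
Nppb, chr4:147985650-147985899: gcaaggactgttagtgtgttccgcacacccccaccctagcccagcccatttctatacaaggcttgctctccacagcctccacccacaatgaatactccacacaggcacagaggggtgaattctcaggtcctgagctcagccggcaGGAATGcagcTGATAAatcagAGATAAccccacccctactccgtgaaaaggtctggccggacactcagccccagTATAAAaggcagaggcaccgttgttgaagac
Both windows held a TATA box (TATAAA), at 9 to 4 bases before the start of Nppa and 31 to 26 before that of Nppb. Among 32817 RefSeq windows of the same length, 12.4% held these letters on either strand. The GATA element (AGATAA or TGATAA) occurred at 122 to 117 bases before Nppa and at 95 to 90 and 84 to 79 bases before Nppb, and 16.6% of windows held it. Nppa held the T-box letters GGTGTGA on the reverse strand at 250 to 244 bases (3.33% of windows) and the NKX2-5 letters AAGTG at 239 to 235 and 65 to 61 bases (40.7% of windows), and neither was in the Nppb window. Nppb held the TEAD letters CATTCC on the reverse strand at 105 to 100 bases (12.6% of windows), which the Nppa window lacked. The CArG box bound by serum response factor was searched only as an exact match to its consensus letters. Such a match, found in 1.47% of windows, was in neither, and sites that differ from the consensus were not searched. Both strands were searched, and no matches overlapped.

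The libraries held between 51.6 and 78.3 fragments in units of 1000000, as read from the values. In every library both members were among the more abundant genes. Nppa ranked between place 82 and place 313 by FPKM (fragments per kilobase of transcript per 1000000 fragments), and Nppb between place 72 and place 693. Between 10739 and 52260 fragments stood behind each Nppa value and between 3645 and 51056 behind each Nppb value, so counting error was small beside the differences between mice. The average level of short transcripts relative to long ones differed between the groups. The mean log2(FPKM + 1) of protein-coding transcripts under 1000 nucleotides minus that of transcripts of at least 3000 was 0.81 ± 0.10 in AngII+QDG, 0.84 ± 0.07 in AngII and 1.20 ± 0.18 in Control libraries (SD, n = 5 each). In AngII+QDG libraries 5.35 ± 0.76% of transcripts were listed at 0, in AngII libraries 4.80 ± 0.88% and in Control libraries 11.4 ± 5.26%.

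Nppa was abundant in every heart and its groups overlapped. In replicates 1 to 5, Nppa stood at 338, 211, 431, 428 and 258 FPKM in AngII+QDG hearts. The AngII hearts had 262, 443, 410, 507 and 771 FPKM, and the Control hearts had 465, 331, 315, 205 and 170 FPKM. AngII hearts 4 and 5 lay above the highest Control heart, and no AngII heart lay below the lowest Control heart. AngII+QDG hearts 2 and 5 lay below the lowest AngII heart, and every AngII+QDG heart lay within the range of the Control hearts. The means were 333 ± 99.1 FPKM in AngII+QDG, 479 ± 187 FPKM in AngII and 297 ± 116 FPKM in Control hearts (SD, n = 5 each).

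Nppb was about as abundant as Nppa, and in AngII+QDG and AngII hearts its level was far more uneven from heart to heart. AngII+QDG hearts 1 to 5 had 89.1, 74.0, 570.0, 737 and 627 FPKM of Nppb. The AngII hearts had 186, 82.6, 420.0, 776 and 835 FPKM, and the Control hearts had 436, 218, 353, 229 and 233 FPKM. The AngII+QDG and AngII hearts lay on both sides of the Control hearts: 3 AngII+QDG hearts and 2 AngII hearts exceeded the highest Control heart, and 2 AngII+QDG hearts and 2 AngII hearts fell short of the lowest. Hearts 1 and 2 of AngII+QDG and heart 2 of AngII had the lowest Nppb levels of the 15. The highest heart held 9.97 times the lowest in AngII+QDG, 10.1 times in AngII and 2.0 times in Control. Means were 419 ± 314 FPKM in AngII+QDG, 460 ± 339 FPKM in AngII and 294 ± 96.8 FPKM in Control hearts (SD, n = 5 each).

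**Figure D1:**
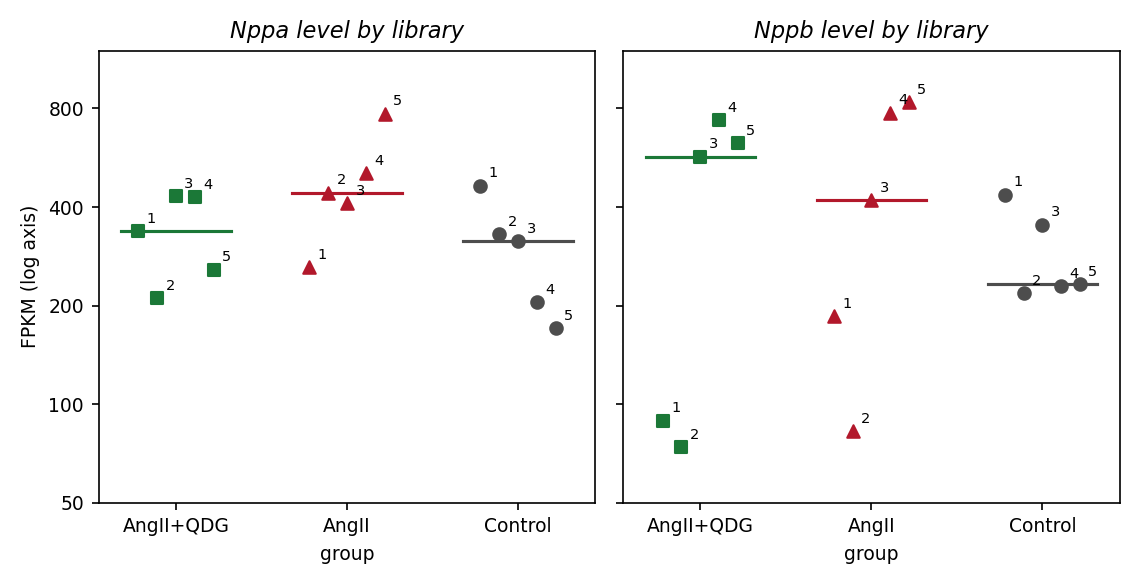
Nppa (left) and Nppb (right) in FPKM on a log axis, 1 point per heart with its replicate number, for AngII+QDG, AngII and Control; the horizontal line is the group's median. Nppa medians are 338, 443 and 315 FPKM in that order of groups and all groups overlap, while Nppb spreads 9.97-fold in AngII+QDG and 10.1-fold in AngII hearts, against 2.0-fold in Control hearts.

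Neither gene passed the test in any comparison. Differences were tested on log2(FPKM + 1) with limma, a linear model fitted to all 15 libraries and all tested genes at once, with p-values adjusted by the Benjamini-Hochberg method and called under 0.05. For AngII minus Control, Nppa differed by 0.69 ± 0.31 (log2, SE; 1.61-fold), with a 95% confidence interval of 0.030 to 1.35, an unadjusted p of 0.0416 and an adjusted p of 0.143 in limma. Without Control 5, Nppa differed by 0.51, with an interval of -0.15 to 1.18 and an adjusted p of 0.304 in limma. Over all 15 libraries, Nppb differed by 0.25 ± 0.73 (1.19-fold), with an interval of -1.32 to 1.81 and an adjusted p of 0.846 in limma. In this comparison 13.4% of the tested genes were called, 11.9% higher and 1.48% lower in AngII, and 0 of the 2 members were. That split depended on scaling: it was 1458 higher and 181 lower as tested, 406 higher and 412 lower under quantile normalization, and 360 higher and 714 lower under median scaling. The median of all tested genes was itself 0.20 higher in AngII than in Control on the log2 scale, and relative to that median Nppa stood 0.49 higher and Nppb 0.045 higher. With every library scaled to the same median level, the difference of Nppb was -0.014, so its direction between AngII and Control was not settled.

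In the comparison of AngII+QDG with AngII, the difference of Nppa was -0.49 ± 0.31 (0.713-fold; 95% confidence interval -1.15 to 0.17; limma adjusted p = 0.998). The difference of Nppb was -0.25 ± 0.73 (0.840-fold; 95% confidence interval -1.81 to 1.31; limma adjusted p = 0.998). Here 0.0% of the tested genes were called in limma, 0 of the 12258, although 579 had an unadjusted p under 0.05, and limma voom on the recovered fragments called 1. The interval of Nppb spans more than 3 log2 units, so a large difference in either direction lies inside it.

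In the comparison of AngII+QDG with Control, Nppa differed by 0.20 ± 0.31 (1.15-fold; 95% confidence interval -0.46 to 0.86; limma adjusted p = 0.685). Nppb differed by -0.0060 ± 0.73 (0.996-fold; 95% confidence interval -1.57 to 1.56; limma adjusted p = 0.997). In this comparison 19.4% of the tested genes were called, 16.1% higher and 3.31% lower in AngII+QDG, and 0 of the 2 members were. Here 1971 were higher and 406 lower, against 983 and 999 under quantile normalization and 790 and 1622 under median scaling. The median of all tested genes was 0.18 higher in AngII+QDG, which left Nppa 0.025 above that median and Nppb 0.18 below it. Under median scaling the difference of Nppa was -0.061, and under quantile normalization that of Nppb was 0.091, so neither direction held across scalings. Both comparisons with Control share the same 5 Control hearts, and both comparisons with AngII share the same 5 AngII hearts.

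Ordered by mean FPKM, AngII hearts came first for both genes, AngII+QDG hearts second and Control hearts last. The order of Nppb depended on the measure: the mean log2(FPKM + 1) was 8.14 in AngII+QDG, 8.39 in AngII and 8.15 in Control hearts, and the median was 570.0 FPKM in AngII+QDG, 420.0 FPKM in AngII and 233 FPKM in Control hearts. No neighbours in that order differed beyond the spread between hearts. With the balance of short to long transcripts as a covariate, Nppa differed by 0.44 and Nppb by 0.92 for AngII minus Control, with limma adjusted p of 0.949 and 0.950, and 0 genes were called. Both transcripts are shorter than 1000 nucleotides, and this balance differed between Control and the other groups. Within groups it ran with Nppa at r = -0.17 and with Nppb at r = 0.19 over 15 libraries. Leaving out Control 3 and Control 5, the libraries with the highest balance, gave no call of either gene.

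Pooled over the groups, the spread of Nppb was among the largest of the abundant genes, and it came from AngII+QDG and AngII hearts. The SD of log2(FPKM + 1) of Nppb was 1.63 in AngII+QDG, 1.42 in AngII and 0.45 in Control hearts, and that of Nppa was 0.45 in AngII+QDG, 0.56 in AngII and 0.58 in Control hearts (n = 5 each). The residual SD pooled over the 3 groups was 1.27 for Nppb and 0.53 for Nppa, against a median of 0.29 over all tested genes. Of the tested genes, 99.1% had a smaller SD than Nppb and 83.1% a smaller SD than Nppa. Among the 522 genes that averaged at least 100 FPKM, the median SD was 0.22, 4 genes had a larger SD than Nppb and 49 had a larger SD than Nppa. Those 4, named after their values were seen, were mt-Atp8, Rpl41, Atp5c1 and Hba-a2. The first 3 code for parts of the mitochondrial ATP synthase or the ribosome, and Hba-a2 codes for an alpha globin of red blood cells. The lowest value of Nppb was 74.0 FPKM, whereas mt-Atp8 was at or below 0.749 FPKM in 9 libraries and Rpl41 stood at 0.0328 FPKM in AngII+QDG 1.

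The ratio of Nppb to Nppa within a heart does not depend on how its library was scaled. It was 0.264, 0.350, 1.32, 1.72 and 2.43 in AngII+QDG hearts 1 to 5. The AngII hearts had 0.709, 0.187, 1.02, 1.53 and 1.08, and the Control hearts had 0.939, 0.659, 1.12, 1.12 and 1.37. Nppb was therefore the more abundant transcript in 3 of 5 hearts of each group, while AngII+QDG 1 and 2 and AngII 2 held several times more Nppa than Nppb. The mean log2 ratio was -0.19 in AngII+QDG, -0.43 in AngII and 0.02 in Control hearts. It differed by -0.45 for AngII minus Control (p = 0.587), by 0.24 for AngII+QDG minus AngII (p = 0.794) and by -0.21 for AngII+QDG minus Control (p = 0.754) in exact two-sided permutation tests over every arrangement of the hearts, each with an adjusted p of 0.794 over the 3 comparisons.

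Across the 15 hearts, with each group's mean removed, Nppa and Nppb ran together loosely. Pearson's r was 0.53 (permutation p = 0.0495, also after adjustment over the coefficients) and Spearman's rho was 0.56 (permutation p = 0.0382, adjusted p = 0.0495), both from 100000 two-sided permutations within groups. Without Control 5 and AngII 1, the 2 hearts whose deviation of Nppa from its group mean lay farthest from the median deviation, r was again 0.53 (permutation p = 0.0962, n = 13) and rho was 0.46 (permutation p = 0.131). Leaving out 1 heart at a time gave r between 0.43 and 0.62, and the permutation p exceeded 0.05 in 11 of the 15 cases: without Control 1, 3, 4 or 5, AngII 1, 3, 4 or 5, or AngII+QDG 2, 3 or 4. The permutation p thus lay at the edge of the threshold, while r changed little. Nppb was not among the genes most like Nppa: ranked by this r with Nppa it took place 857 among 9452 genes, and Nppa took place 211 among the genes ranked by their r with Nppb. With group means left in, the places were 1561 and 164.

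**Figure D2:**
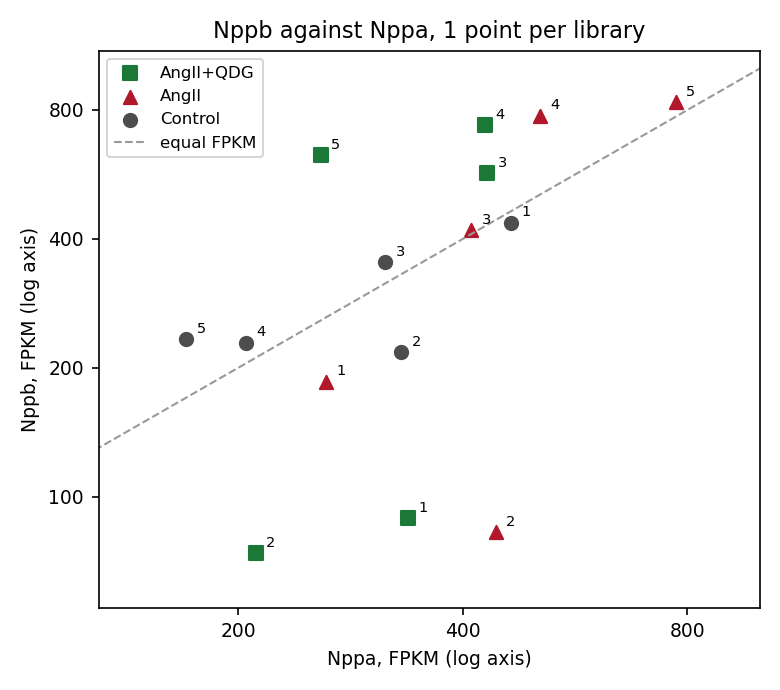
Nppb against Nppa in FPKM, both on log axes, 1 point per heart with its replicate number and the group by shape; the dashed line marks equal FPKM. AngII+QDG 1 and 2 and AngII 2 lie far below the line, with Nppb between 74.0 and 89.1 FPKM, and 9 of the 15 hearts lie above it.

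Heart tissue can hold atrial as well as ventricular muscle, and Nppa is strongest in the atria, so marker genes of each were examined. Of 10 atrial markers 7 had values, and their summed level was 8.43 to 27.0 FPKM in AngII+QDG, 7.78 to 12.8 FPKM in AngII and 3.63 to 15.1 FPKM in Control libraries. The 7 ventricular markers summed to between 9706 and 14449 FPKM in AngII+QDG, 12424 and 13360 FPKM in AngII and 11662 and 17886 FPKM in Control libraries. Myl7, an atrial myosin light chain, ranged between 0.087 and 6.50 FPKM over the 15 libraries, and Myl2, the ventricular one, between 5300 and 9263 FPKM. No marker of either list was called in any comparison. The part of atrial muscle in the level of Nppa was not tested. The atrial markers without values were not analysed here.

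Within groups, the summed atrial markers ran with Nppa at r = 0.32 and with Nppb at r = 0.25 over 15 libraries, given as descriptions. AngII+QDG 5 had the highest atrial sum, 27.0 FPKM, beside 258 FPKM of Nppa, the second lowest of its group, and 627 FPKM of Nppb. Among Control hearts, Control 1 had both the highest atrial sum and the highest Nppa, at 15.1 and 465 FPKM, and Control 5 the lowest of both, at 3.63 and 170 FPKM. The hearts with the lowest Nppb, AngII+QDG 1 and 2 and AngII 2, had atrial sums of 9.71, 8.43 and 12.8 FPKM. Summed markers of fibroblasts had r = 0.61 with Nppa and 0.46 with Nppb, those of macrophages 0.61 and 0.39, those of mural cells 0.60 and 0.34, and those of endothelium 0.59 and 0.27. The fibroblast, mural cell and endothelium sums were each lowest in Control 5 and highest in AngII 5, as Nppa was. The macrophage sum was lowest in Control 5. How far Control 5 and AngII 5 set these r was not tested. The conduction system list had r = 0.57 with Nppa and 0.018 with Nppb, the general cardiomyocyte list 0.45 and -0.022 and the ventricular list 0.074 and 0.22. Blood markers had 0.20 and 0.34, adipocyte markers 0.19 and 0.27, and mesothelium and epicardium -0.29 and -0.22. Summed fibroblast markers were 625 to 877 FPKM in AngII+QDG, 596 to 882 FPKM in AngII and 443 to 698 FPKM in Control libraries. The part of these cell types in the levels of Nppa and Nppb was not tested. In such bulk libraries fewer cells of a type and less RNA per cell cannot be told apart.

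The genes most like Nppa across hearts were then listed, from the 9452 tested genes that averaged 1 FPKM or more. The likeness is Pearson's r of log2(FPKM + 1) over 15 libraries, given as a description. Over the libraries as they stand, the 5 nearest to Nppa were Kcne1 at 0.89, a subunit of the cardiac slow potassium channel, Tubb2b at 0.86, a beta tubulin, Fstl3 at 0.86, a secreted binder of activins, Srsf9 at 0.84, a splicing factor, and Alkbh4 at 0.84, a demethylase. With group means removed, Ankrd1 came first at 0.95, followed by Alkbh4 at 0.88, Kcne1 and Rab31 at 0.86 and Ctsk at 0.84. Apart from Ankrd1, every gene named here was lowest in Control 5 and highest in AngII 5, as Nppa was. Ankrd1 was lowest in Control 5 and highest in AngII+QDG 3. Control 5 also had the largest share of transcripts listed at 0 among the 15 libraries. How far Control 5 and AngII 5 set these likenesses was not tested. Ankrd1 codes for a stretch-responsive ankyrin repeat protein of the sarcomere and nucleus. It stood at 753, 569, 1117, 894 and 711 FPKM in AngII+QDG hearts, at 513, 791, 803, 890 and 990 FPKM in AngII hearts and at 487, 362, 370, 304 and 222 FPKM in Control hearts.

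Ankrd1 thus followed Nppa from heart to heart inside each group, with the highest and lowest hearts of AngII the same for both genes. Unlike Nppa, it was called against Control, although the difference between these 2 genes was not tested. Every AngII+QDG heart and every AngII heart lay above every Control heart for Ankrd1, and it was called higher in AngII than in Control by 1.20 ± 0.22 (limma adjusted p = 0.0112) and in AngII+QDG than in Control by 1.22 ± 0.22 (limma adjusted p = 0.00437). The calls were kept without each library in turn, and the first was lost without Control 3 and Control 5 together. Of the other 7 genes listed for Nppa, Fstl3, Tubb2b and Rab31 were called higher in AngII than in Control, by 0.74, 0.59 and 0.60 (limma adjusted p = 0.0288, 0.0487 and 0.0471). Of all tested genes 11.9% were called higher in that comparison. Fstl3 and Tubb2b were listed with group means left in, so group differences like those of Nppa favoured their listing. Of the 7, only Rab31 was called in AngII+QDG relative to Control, higher by 0.60 (limma adjusted p = 0.0350), against 16.1% of all tested genes higher.

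The genes most like Nppb were others. Zfx, a zinc finger transcription factor, came first over the libraries and with group means removed, at 0.88 in each. Ormdl2, a regulator of sphingolipid synthesis, followed at 0.83 over the libraries and 0.84 with group means removed. S100a4, a calcium-binding protein, stood at 0.79 and 0.81, and Pqlc3 at 0.78 and 0.84. Spef1 at 0.75 over the libraries and Tspan6 at 0.80 with group means removed completed the lists. Zfx is a low gene, and its value in AngII+QDG hearts 1 to 5 was listed at 0 in heart 1 and was 0.00373, 1.75, 1.57 and 2.45 FPKM in the others. It was 1.31, 0.0324, 1.39, 1.57 and 1.52 FPKM in AngII hearts and 0.926, 1.15, 1.15, 1.38 and 0.639 FPKM in Control hearts. The 3 libraries in which Zfx was at or near 0 were the 3 with the lowest Nppb. Ormdl2 was also lowest in 2 of them, at 0.522 FPKM in AngII+QDG 1 and 0.529 FPKM in AngII 2. None of these 6 genes was called in any comparison. No gene was in the lists of both members.

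**Figure D3:**
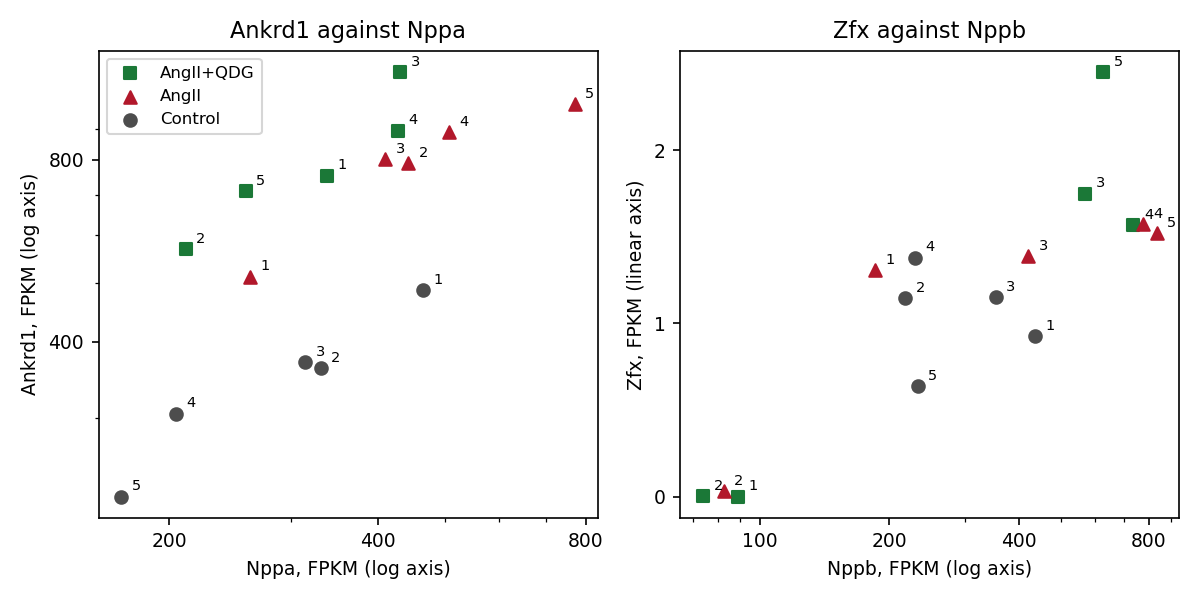
Left, Ankrd1 against Nppa, both in FPKM on log axes; right, Zfx in FPKM on a linear axis against Nppb in FPKM on a log axis; 1 point per heart with its replicate number and the group by shape. Ankrd1 climbs with Nppa inside each group while all AngII+QDG and AngII hearts lie above the Control hearts, and the 3 hearts with Zfx at or near 0 are those with Nppb below 90 FPKM.

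The natriuretic peptide system around both hormones was examined through lists of 57 other genes, of which 49 were tested. For AngII minus Control, 11 were called higher and 0 lower, 22.4% of the list against 13.4% of all genes, and the median difference was 0.35 against 0.20 over all genes. None was called for AngII+QDG minus AngII (0 of 49), and the median was -0.02 in the list and -0.02 over all genes. In AngII+QDG minus Control, 10 were called higher and 3 lower, 26.5% against 19.4% of all genes, with a median of 0.33 against 0.18. Of these 57, 10 belong to the hypertrophy programme. Without them 15.4%, 0.0% and 28.2% of the remaining 39 tested genes were called in these comparisons. The lists were chosen with earlier results of these data known, so their shares of calls are descriptions and not independent support.

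The 3 proteases of precursor processing were not called in any comparison, and their differences from Control turned on Control 5. Corin, which cuts the ANP precursor, averaged 19.2 ± 3.06 FPKM in AngII+QDG, 18.8 ± 3.55 FPKM in AngII and 10.6 ± 6.03 FPKM in Control hearts. All AngII+QDG and all AngII hearts lay above all Control hearts, and Control 5 stood at 0.0706 FPKM, far below the other Control hearts at 11.1 to 14.7 FPKM. The difference was 1.21 ± 0.57 for AngII minus Control (limma adjusted p = 0.159) and 1.24 ± 0.57 for AngII+QDG minus Control (limma adjusted p = 0.138). Furin differed by 1.02 ± 0.64 for AngII minus Control (limma adjusted p = 0.285), and it too was near 0 in Control 5, at 0.00641 FPKM. Pcsk6, which encodes PACE4, an activator of corin, differed by 0.58 ± 0.22 (limma adjusted p = 0.0907). Without Control 5, the difference of Corin was 0.47 for AngII minus Control (limma adjusted p = 0.0635) and 0.50 for AngII+QDG minus Control, where it was then called (limma adjusted p = 0.0334). Without it Furin differed by 0.18 for AngII minus Control and by -0.030 for AngII+QDG minus Control, and Pcsk6 by 0.38 and 0.41 (limma adjusted p between 0.138 and 0.920 for these 4).

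The receptors showed no call either. Npr1, the cyclase receptor for both hormones, averaged 5.10 ± 0.98 FPKM in AngII+QDG, 5.41 ± 0.67 FPKM in AngII and 4.99 ± 1.97 FPKM in Control hearts. Its difference was 0.15 ± 0.20 for AngII minus Control (limma adjusted p = 0.630). Npr2, the receptor for the related C-type peptide, differed by -0.09 ± 0.16 (limma adjusted p = 0.737), and Npr3, which clears all these peptides from the circulation, by -0.04 ± 0.37 (limma adjusted p = 0.952). Npr3 differed by 0.56 ± 0.37 for AngII+QDG minus AngII (limma adjusted p = 0.998). Without Control 5, Npr1 differed by -0.00092 and Npr3 by -0.21 for AngII minus Control, and neither was called. Ide, a protease that degrades ANP, ranged between 3.54 and 11.01 FPKM in AngII+QDG and between 2.69 and 10.4 FPKM in AngII hearts. Among Control hearts it was listed at 0 in heart 2 and reached 6.85 FPKM, and its difference was 1.41 ± 0.54 for AngII minus Control (limma adjusted p = 0.0927). The genes Nppc, Ostn, Mme, Prkg2, Pde5a, Gucy1a2 and Myocd were not analysed here.

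Downstream of the receptors, 3 of 10 tested genes of cyclic GMP effectors and phosphodiesterases rose in AngII hearts relative to Control and 0 fell, against 11.9% of all tested genes higher and 1.48% lower. Prkg1, the cyclic GMP-dependent kinase, was low, at 0.299 to 1.22 FPKM in AngII and 0.0545 to 0.20 FPKM in Control hearts, and rose by 0.52 ± 0.15 (limma adjusted p = 0.0382). Pde1c and Pde3a, which degrade cyclic GMP and cyclic AMP, rose by 0.49 ± 0.14 and 0.62 ± 0.16 (limma adjusted p = 0.0335 and 0.0294). The same 3 were called in AngII+QDG relative to Control, at 0.54, 0.63 and 0.65 (limma adjusted p = 0.0235, 0.00808 and 0.0157). In that comparison 16.1% of all tested genes were called higher and 3.31% lower. There Rgs2, a brake on angiotensin receptor signalling that the kinase activates, fell by 0.64 ± 0.21 (limma adjusted p = 0.0462). Of the nitric oxide sensitive cyclase, which makes cyclic GMP without the peptides, Gucy1b1 rose by 0.63 ± 0.15 in AngII and 0.61 ± 0.15 in AngII+QDG relative to Control (limma adjusted p = 0.0239 and 0.0152), and Gucy1a1 rose in AngII+QDG by 0.43 ± 0.14 (limma adjusted p = 0.0400).

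Among 19 tested transcription factors linked to the promoters of Nppa or Nppb, 2 rose in AngII relative to Control and 0 fell, a share near the 11.9% of all tested genes called higher. Tbx20, a T-box factor of cardiomyocytes, rose by 0.92 ± 0.20 (limma adjusted p = 0.0167), with 5.16 to 8.42 FPKM in AngII hearts against 1.84 to 4.44 FPKM in Control hearts. Yy1, a zinc finger factor, rose by 0.35 ± 0.10 (limma adjusted p = 0.0389). In AngII+QDG relative to Control, 3 of the 19 were called higher and 2 lower, against 16.1% and 3.31% of all tested genes. There Tbx20 rose by 0.94 ± 0.20 (limma adjusted p = 0.00696), Yy1 by 0.35 ± 0.10 (limma adjusted p = 0.0263) and Rest, a repressor that binds the Nppa gene, by 0.41 ± 0.12 (limma adjusted p = 0.0266). Nkx2-5, the homeobox factor of the AAGTG letters shown above, fell by 0.40 ± 0.11 (limma adjusted p = 0.0225), and Yap1, a coactivator of TEAD factors, fell by 1.08 ± 0.30 (limma adjusted p = 0.0226). Gata4 and Gata6 differed by 0.66 ± 0.83 and 0.78 ± 0.52 for AngII minus Control (limma adjusted p = 0.618 and 0.318) and both were listed at 0 in Control 5. Without that heart they differed by -0.21 and 0.12, so the direction of Gata4 turned. Srf, which binds CArG boxes, differed by 0.56 ± 0.19 (limma adjusted p = 0.0654). Mef2c had values but was below the filter on low levels.

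The 4 genes of the system with the smallest p for AngII+QDG minus AngII were Mef2a at -1.47 ± 0.41, Yap1 at -0.99 ± 0.30, Mrvi1 at -0.82 ± 0.27 and Nkx2-5 at -0.31 ± 0.11, with limma adjusted p of 0.669, 0.696, 0.792 and 0.893. Mrvi1, which encodes a substrate of the cyclic GMP-dependent kinase at the calcium store, was at or near 0 in AngII+QDG 3, 4 and 5, the 3 hearts of that group with high Nppb, and stood at 1.80 and 1.54 FPKM in AngII+QDG 1 and 2. AngII hearts 1 to 5 had 1.72, 1.45, 1.34, 2.05 and 1.67 FPKM of Mrvi1, so it was not low in AngII 4 and 5, the AngII hearts with the highest Nppb. Mrvi1 was between 0.809 and 1.52 FPKM in Control hearts. Its deviations ran with those of Nppb at r = -0.66 over 15 libraries, as a description.

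Of the 10 genes of the hypertrophy programme, 5 rose in AngII relative to Control and 0 fell, against 11.9% of all tested genes higher and 1.48% lower. In AngII+QDG relative to Control 2 of the 10, Ccn2 and Ankrd1, were called higher and 0 lower, against 16.1% and 3.31% of all tested genes. For AngII+QDG minus AngII 0 of the 10 were called, against 0.0% of all tested genes. The median difference was then -0.12, against -0.02 over all genes. Whether the counts of calls against Control differ between AngII and AngII+QDG was not tested. This list too was chosen with earlier results of these data known. Ccn2, a matrix-associated growth factor modulator, was 39.9 to 134 FPKM in AngII+QDG, 35.3 to 133 FPKM in AngII and 11.7 to 16.7 FPKM in Control hearts. It rose by 2.10 ± 0.35 in AngII (limma adjusted p = 0.00780) and by 2.54 ± 0.35 in AngII+QDG relative to Control (limma adjusted p = 0.00153). Acta1, skeletal actin, rose by 1.33 ± 0.41 in AngII (limma adjusted p = 0.0451), Rcan1, a calcineurin regulator, by 0.99 ± 0.27 (limma adjusted p = 0.0323) and Xirp2, a protein of the intercalated disc, by 0.75 ± 0.19 (limma adjusted p = 0.0246), and Ankrd1 was the fifth. Myh7, the beta myosin heavy chain usually read beside Nppa and Nppb, differed by 1.03 ± 0.37 (limma adjusted p = 0.0763), and by 0.69 without Control 5 (limma adjusted p = 0.157). Within groups, Nppa ran with Rcan1 at r = 0.68, Myh7 at 0.66 and Acta1 at 0.64, while Nppb ran with them at 0.36, 0.20 and 0.27. Ccn2 had 0.29 with Nppa and 0.62 with Nppb, and Xirp2 0.085 and 0.45. Atp2a2, the calcium pump of the calcium store, had -0.013 and -0.35, and Fhl1, a LIM domain protein, -0.36 and -0.16. Rcan1 and Acta1 were lowest in Control 5 and highest in AngII 5, as Nppa was. Myh7 was lowest in Control 5, and among AngII hearts it was highest in AngII 5. How far Control 5 and AngII 5 set the r of Nppa with Rcan1, Myh7 and Acta1 was not tested.

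Many of these pathway calls depended on single libraries. Of the 11 called for AngII minus Control, 0 were kept without Control 3 and Control 5 together. Ccn2, Ankrd1 and Tbx20 were kept without each library in turn and were the 3 kept with the replicate block. The number kept was 3 without AngII 2, 4 without AngII 4, without AngII 5 or without Control 3, 5 without Control 5 and 6 without AngII 1. It was 8 without Control 1 or Control 2, 9 without AngII+QDG 4, 10 without AngII 3 or AngII+QDG 3, and 11 without each of the other 4 libraries. Under quantile normalization or median scaling, Ccn2, Ankrd1 and Rcan1 were kept, and with the balance of short to long transcripts as a covariate 0 were. In AngII+QDG minus Control, 15 genes were called in these lists and in the region described next. Of these, 8 were kept without AngII+QDG 5, 9 without AngII+QDG 1, 11 without Control 3, 12 without AngII+QDG 4, 13 without Control 2, AngII 4 or AngII+QDG 3, and 14 or 15 without each other library. Without Control 3 and Control 5 together 8 were kept, under quantile normalization 7, under median scaling 8, and with the balance as a covariate 0.

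**Figure D4:**
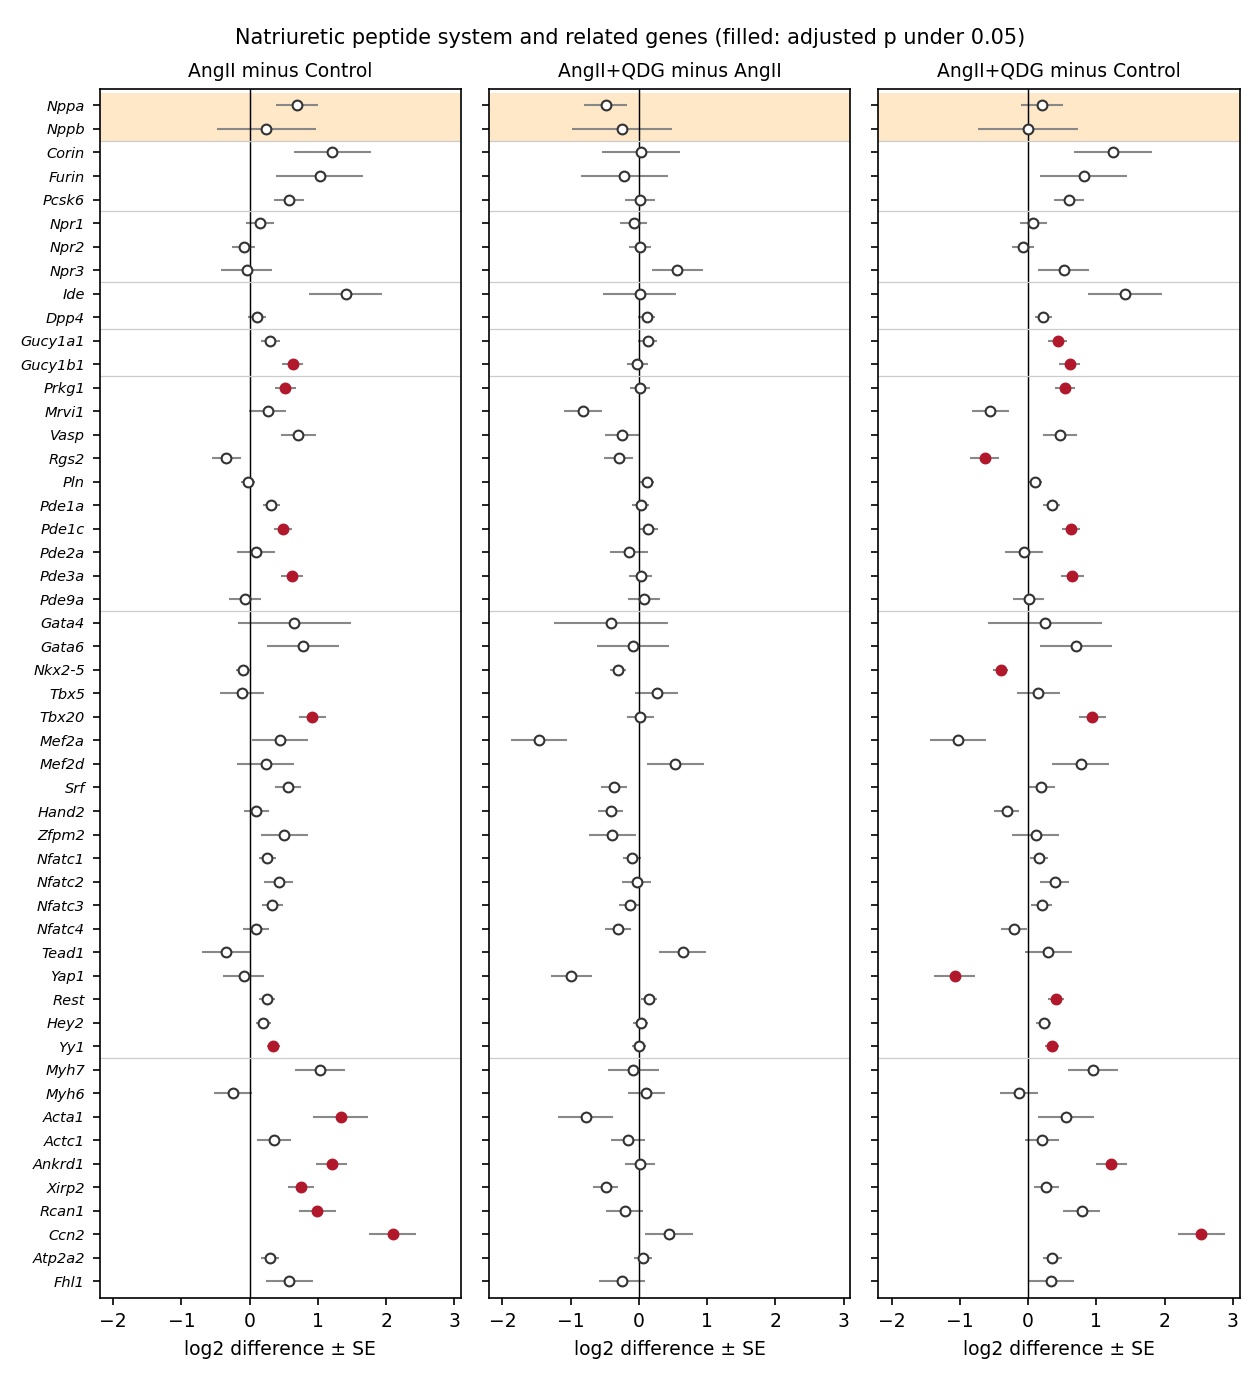
Differences in log2(FPKM + 1) with their SE for Nppa and Nppb (shaded, at the top) and the 49 other tested genes of the natriuretic peptide system, their promoter factors and the hypertrophy programme, in 3 comparisons of 5 hearts each; filled points have a limma adjusted p under 0.05. The members are open in every panel, 11 genes are filled for AngII minus Control, 0 for AngII+QDG minus AngII and 13 for AngII+QDG minus Control, and the bars of Nppb are among the widest.

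Nppa and Nppb stand in a gene-dense region, and their neighbours were examined within 200 kb on either side. Of 23 other annotated genes, 13 had values and were tested, and the others were not analysed here. For AngII minus Control and for AngII+QDG minus AngII, 0 of the 13 were called, against 13.4% and 0.0% of all tested genes. In AngII+QDG minus Control 2 of the 13 were called, against 19.4% of all tested genes. Fv1, a retroviral restriction gene, rose by 0.81 (limma adjusted p = 0.0233) and Rps19-ps3, a ribosomal protein pseudogene whose reads may be shared with its parent gene, fell by 0.77 (limma adjusted p = 0.0144). The call of Fv1 was lost without AngII+QDG 1 or without AngII+QDG 5, at 0.72 and 0.75. The median difference of the 13 was -0.11 for AngII minus Control, -0.06 for AngII+QDG minus AngII and -0.14 for AngII+QDG minus Control, against 0.20, -0.02 and 0.18 over all genes.

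The group means of all 13 lay below those of the pair. The most abundant of them, Mfn2, which encodes a mitochondrial fusion protein, averaged 127 ± 17.5 FPKM in AngII+QDG, 131 ± 22.6 FPKM in AngII and 96.7 ± 44.3 FPKM in Control hearts. Plod1, a collagen lysyl hydroxylase gene, averaged 30.2 ± 4.10 FPKM in AngII+QDG, 34.9 ± 5.00 FPKM in AngII and 28.6 ± 7.67 FPKM in Control hearts. Of the 13, Plod1 had the largest within-group r with Nppa, 0.62, and an r of 0.14 with Nppb. With Nppb, the r of the 13 ranged between -0.46, for Zfp984, and 0.15, for Fbxo44.

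**Figure D5:**
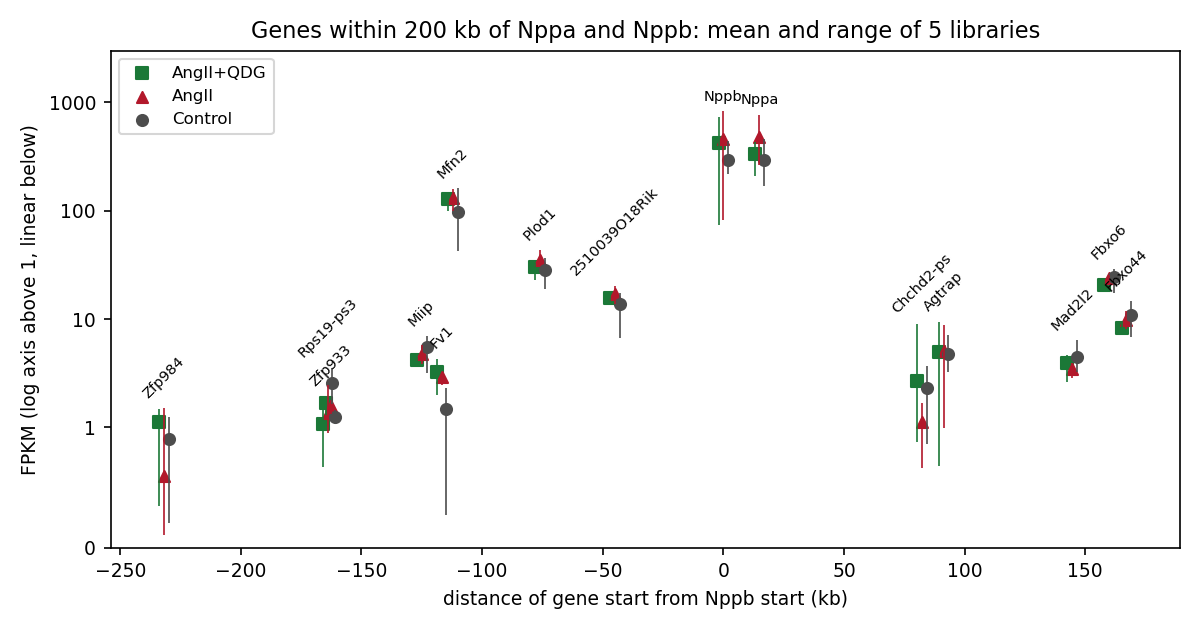
Level in FPKM (log axis above 1, linear below) of Nppb, Nppa and the 13 tested genes within 200 kb, placed by the distance of each gene's start from the start of Nppb in kb; points are means and lines the range of 5 hearts, for AngII+QDG, AngII and Control. The means of Nppb and Nppa lie above those of all 13 neighbours in each group, and the line of Nppb is long in AngII+QDG and AngII and short in Control.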

How the data were processed

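Per the labels' protocols, heart RNA was freed of rRNA before NEB libraries were built. The submitters' processing notes name the GRCm38 build and limma. The sources used here give neither an aligner nor a counting tool. The authors deposited 1 table of FPKM per library, with 1 value per transcript. Headers name no unit, so FPKM was read off the values. A value times its transcript's length fell on whole multiples of a step in each library, within 0.1 step for 97.0 to 97.3% of transcripts above 0 (chance gives 20%), and 1 step was read as 1 fragment. GENCODE M21 named 24756 of the 24789 Ensembl transcripts, which summed to 12380 genes.

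Testing used limma 3.58.1 (R 4.3.3) on log2(FPKM + 1) for the 12258 genes that reached 0.5 FPKM in 5 or more libraries. The fit held all 15 libraries, with variance trend and robust options and 12 residual degrees of freedom, and an adjusted p under 0.05 was called. Differences on this scale understate the change of low genes. The Nppb to Nppa ratio was compared by exact permutation tests, and correlations used each library's deviation from its group mean. The same steps were tested on simulated data. Python 3.11.15, numpy 2.4.6, pandas 2.3.3, scipy 1.17.1 and matplotlib 3.10.9 were used. Replicates are separate mice, per the series' design text.

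The 2 genes, the lists of related genes and the markers were chosen with earlier results of these data known. Named were the members, called genes of the lists and up to 4 more per comparison by p, genes within 200 kb, and the 5 genes most like each member. Alternatives covered the pseudocount, the filter on low genes, scaling by quantiles or medians, fits of 2 groups, a replicate block, limma without trend and robust options, sample weights, other transcript sets, mitochondrial genes left out, the balance of short and long transcripts, limma voom on recovered fragments, and libraries left out. For the correlation of Nppa with Nppb, leaving out each library and leaving out Control 3 and Control 5 were added after seeing the data.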

Additional observations from a re-analysis of the deposited data

Results flagged for a closer look

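A single library, AngII+QDG 5, stood apart in a measure that bears on Nppa. The summed level of atrial cardiomyocyte markers was 27.0 FPKM in AngII+QDG 5, against 11.5 FPKM in the next library of its group. The gap was 0.833 of the group's whole range, above the critical value of 0.71 for 5 libraries. In that library Nppa stood at 258 FPKM, below the mean of 333 ± 99.1 FPKM (SD, n = 5) of its group. In all, 15 groups of values were checked in this way, of which chance flags about 1 in 20. Neither Nppa nor Nppb had such a library in any group.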

How the results depend on the processing

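Neither Nppa nor Nppb was called under any of 31 alternative settings per comparison, while several directions of Nppb changed. For AngII minus Control, Nppa ranged between 0.41 and 0.89 (limma adjusted p between 0.0742 and 0.949). Nppb in that comparison was -0.014 under median scaling and lay between -0.084 (without AngII 5) and 0.75 (without AngII 2) when 1 library was left out; without AngII 4 it was -0.058. In AngII+QDG minus AngII, Nppa kept its direction, between -0.68 and -0.30, and Nppb lay between -0.75 (without AngII 2) and 0.23 (without AngII+QDG 2), with 0.052 without AngII 4, 0.078 without AngII 5 and 0.16 without AngII+QDG 1. In AngII+QDG minus Control, Nppa was -0.061 under median scaling, -0.0097 with sample weights and -0.078 with the balance of short to long transcripts as a covariate. Nppb there was 0.091 under quantile normalization, 0.0086 without mitochondrial genes, 0.74 with the balance as a covariate and 0.0094 without Control 3 and Control 5. Leaving out 1 library moved it between -0.35 (without AngII+QDG 4) and 0.47 (without AngII+QDG 2), with 0.41 without AngII+QDG 1, 0.15 without Control 1 and 0.074 without Control 3. The cause of these changes was not tested.

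The log2 ratio of Nppb to Nppa, with 1 library left out, lay between -0.71 and 0.049 for AngII minus Control, between -0.26 and 0.67 for AngII+QDG minus AngII and between -0.58 and 0.22 for AngII+QDG minus Control. It changed sign without AngII 2 in the first (0.049), without AngII 2 (-0.26), AngII+QDG 4 (-0.0074) or AngII+QDG 5 (-0.13) in the second, and without AngII+QDG 1 (0.22) or AngII+QDG 2 (0.12) in the last. The r of Nppa with Nppb lost its call without Control 5 and AngII 1 (0.53), without Control 3 and Control 5 (0.56) and in 11 of the 15 cases with 1 library left out (0.43 to 0.62 over all 15).

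The background count of 1639 genes for AngII minus Control was 818 under quantile normalization, 1074 under median scaling, 317 in a fit of the 2 groups, 97 without Control 3 and Control 5, 0 with the balance as a covariate, and 316 to 2488 with 1 library left out. The count for AngII+QDG minus AngII was 0, and 1 with a pseudocount of 0.1, with sample weights, with the balance as a covariate and with limma voom, and 0 to 1 with 1 library left out. The 2377 genes for AngII+QDG minus Control became 1541 with at least 1 FPKM in every library, 1448 in a fit of the 2 groups, 0 with the balance as a covariate, 1202 without Control 3 and Control 5, and 1452 to 3022 with 1 library left out. Over all tested genes, the replicate numbers did not pair the samples: the correlations of same-numbered libraries lay between -0.096 and 0.088. For Nppb, hearts 1 and 2 were lower than hearts 3, 4 and 5 in AngII+QDG and in AngII. A replicate block lowered the residual SD of Nppb from 1.27 to 0.99 and raised that of Nppa from 0.53 to 0.64. Whether the numbers mark something shared by these hearts was not tested. With the replicate block, 516 genes were called for AngII minus Control, 0 for AngII+QDG minus AngII and 1857 for AngII+QDG minus Control, and Nppa and Nppb were not called.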
